A study of Mus musculus with 10 samples.

Results

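H3K4me3 at gene promoters was compared between 3 populations sorted from mouse naive extra-embryonic endoderm (nEnd), and 907 promoter regions carried the mark in DP nEnd and in Pdgfra+ nEnd but not in Oct4+ nEnd. They were chosen by the measured peaks themselves. The deposited consensus peaks of the 3 populations (merged peaks found in at least 2 libraries of a population) were joined into 9134 regions. Of these, 8494 overlapped a promoter, taken as 1000 bp upstream to 100 bp downstream of a transcription start site (TSS) of a protein-coding transcript. The 907 regions are those overlapped by a DP and a Pdgfra+ consensus peak and by no Oct4+ consensus peak. They are called shared regions here. A further 52 such regions lay away from promoters and were not followed.

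nEnd is a cultured counterpart of the primitive endoderm (PrE) of the blastocyst, made here from 1 embryonic stem cell line, OCT4-mCherry, in which a fluorescent protein reports OCT4. The labels give no treatment for any of the cells. Cells were separated by flow cytometry on the reporter and on an antibody to PDGFRA at the cell surface. Cells with both signals were called double positive (DP nEnd, 3 libraries), those with PDGFRA alone Pdgfra+ nEnd (3 libraries), and those with the reporter alone Oct4+ nEnd (4 libraries). The methods of the study describe replicates as biological unless stated otherwise, and the labels do not say whether those of a population came from separate cultures, so p-values measure the spread between these samples.

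H3K4me3 is a histone mark found at the promoters of most transcribed genes, and it often spreads over a wider stretch at genes that define a cell type. The PrE forms beside the epiblast (Epi), and gives rise to the visceral and parietal endoderm, which secrete basement membrane, take up nutrients and signal to the embryo. GATA6, SOX17, GATA4, SOX7 and FOXA2 are transcription factors of this lineage, while OCT4, NANOG and SOX2 maintain the Epi. CUT&Tag, the assay used, brings the Tn5 transposase to the mark with an antibody and tags the DNA there.

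The promoters of 5 shared genes illustrate the DNA of these regions. They are the listed PrE regulators and, from the other gene lists, the listed genes of highest rank for which RefSeq promoter sequence was at hand (GRCm38.p6). Each shows the 250 bases before the RefSeq start, 5′ to 3′ on the strand of the gene, with CpG dinucleotides in capitals. Cytosine in this dinucleotide can be methylated, and promoters rich in unmethylated CpG recruit enzymes that write H3K4me3.
Foxa2, chr2:148046970-148047219, minus strand: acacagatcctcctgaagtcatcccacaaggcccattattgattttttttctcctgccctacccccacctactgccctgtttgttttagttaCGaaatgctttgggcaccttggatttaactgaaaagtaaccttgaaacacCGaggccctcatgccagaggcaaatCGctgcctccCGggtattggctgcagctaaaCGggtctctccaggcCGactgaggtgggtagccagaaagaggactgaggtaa
Snai1, chr2:167537945-167538194, plus strand: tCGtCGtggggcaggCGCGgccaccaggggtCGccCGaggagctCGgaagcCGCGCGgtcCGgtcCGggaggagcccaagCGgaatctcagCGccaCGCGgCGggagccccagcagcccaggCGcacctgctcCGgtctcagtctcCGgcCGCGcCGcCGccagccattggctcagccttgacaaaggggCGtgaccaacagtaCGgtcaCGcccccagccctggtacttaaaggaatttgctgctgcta
Cited1, chrX:102252182-102252431, minus strand: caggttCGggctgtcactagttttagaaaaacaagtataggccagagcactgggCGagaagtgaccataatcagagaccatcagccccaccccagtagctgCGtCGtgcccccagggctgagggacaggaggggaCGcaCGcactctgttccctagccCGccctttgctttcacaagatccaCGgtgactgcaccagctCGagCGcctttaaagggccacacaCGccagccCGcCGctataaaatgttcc
Pdgfra, chr5:75152001-75152250, plus strand: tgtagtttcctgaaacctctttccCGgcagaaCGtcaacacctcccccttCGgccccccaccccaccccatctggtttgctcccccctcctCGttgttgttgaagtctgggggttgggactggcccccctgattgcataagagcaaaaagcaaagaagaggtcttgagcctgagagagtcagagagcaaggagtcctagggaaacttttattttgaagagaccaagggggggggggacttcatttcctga
Lamb1, chr12:31265043-31265292, plus strand: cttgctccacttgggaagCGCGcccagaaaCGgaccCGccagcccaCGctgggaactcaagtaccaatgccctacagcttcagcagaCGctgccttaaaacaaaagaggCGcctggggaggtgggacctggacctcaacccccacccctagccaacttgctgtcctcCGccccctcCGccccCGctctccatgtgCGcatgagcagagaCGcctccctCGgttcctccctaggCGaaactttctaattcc

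These 5 promoters differed widely in CpG content. The Pdgfra stretch held 4 CpG, an observed-to-expected ratio of 0.216 (CpG found over the number that its C and G content would give by chance order). Foxa2 held 6 (ratio 0.376), Cited1 13 (0.625), Lamb1 14 (0.627) and Snai1 27 (0.882). The median ratio over the 300-base promoters of 16515 protein-coding genes in the RefSeq table, which include 50 bases after the start, was 0.597. Pdgfra and Foxa2, the poorest in CpG, and Lamb1 lay in regions whose peaks ranked among the strongest of the DP and Pdgfra+ libraries, as given below. In Pdgfra+ replicate 2, however, the peak at Pdgfra began 460 bp downstream of the TSS and did not cover the stretch shown. Over their whole length, the 907 shared regions had a median ratio of 0.437 and a GC content of 50.2%, against 0.447 and 48.8% in the 6322 promoter regions marked in all 3 populations. The quartiles of the ratios ran from 0.354 to 0.532 in the former and from 0.379 to 0.535 in the latter. In the 300-base promoters alone, the median ratio was 0.741 at 737 genes of shared regions and 0.84 at 6016 genes of regions of all 3 populations, and 72.2% and 87.2% were above 0.6. The 737 are 76.2% of the 967 genes, under the 80% set for such a comparison, which is therefore void and given as values only.

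The shared regions covered promoters of 967 genes. A single gene was covered in 841 regions, 2 genes in 63 and 3 genes in 3, and 906 regions contained a TSS. They were spread over 20 chromosomes, with 21 to 81 regions on each. Their median width was 4643 bp (quartiles 3874 to 5765 bp, range 2422 to 19417 bp), and that of regions marked in all 3 populations was 5626 bp. By symbol, the most frequent families were solute carriers (Slc, 28 genes), zinc finger proteins (Zfp, 24) and transmembrane proteins (Tmem, 16). They made up 16.6%, 10.2% and 12.6% of the marked genes of those families, and shared regions held 9.79% of the 9877 genes marked in any population.

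Because the rule asked for 2 of 3 libraries, presence differed between libraries. A peak lay on 889, 907 and 735 of the 907 regions in DP replicates 1, 2 and 3, and on 907, 562 and 887 in Pdgfra+ replicates 1, 2 and 3. In Oct4+ replicates 1 to 4 the numbers were 351, 42, 1 and 0. Oct4+ replicate 1 stood apart, with a peak at 38.7% of the shared regions, and DP replicate 3 and Pdgfra+ replicate 2 lacked the largest numbers among the other populations. All 6 DP and Pdgfra+ libraries had a peak at 493 regions, and 274 of these had none in any Oct4+ library. Among all 9134 regions, 3.09% had this strict pattern, which the rule itself favours in the shared regions. The totals of peaks were 7575 to 8836 in DP, 6510 to 10545 in Pdgfra+ and 3477 to 9144 in Oct4+ libraries. The sequencing depth is unknown.

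**Figure D1:**
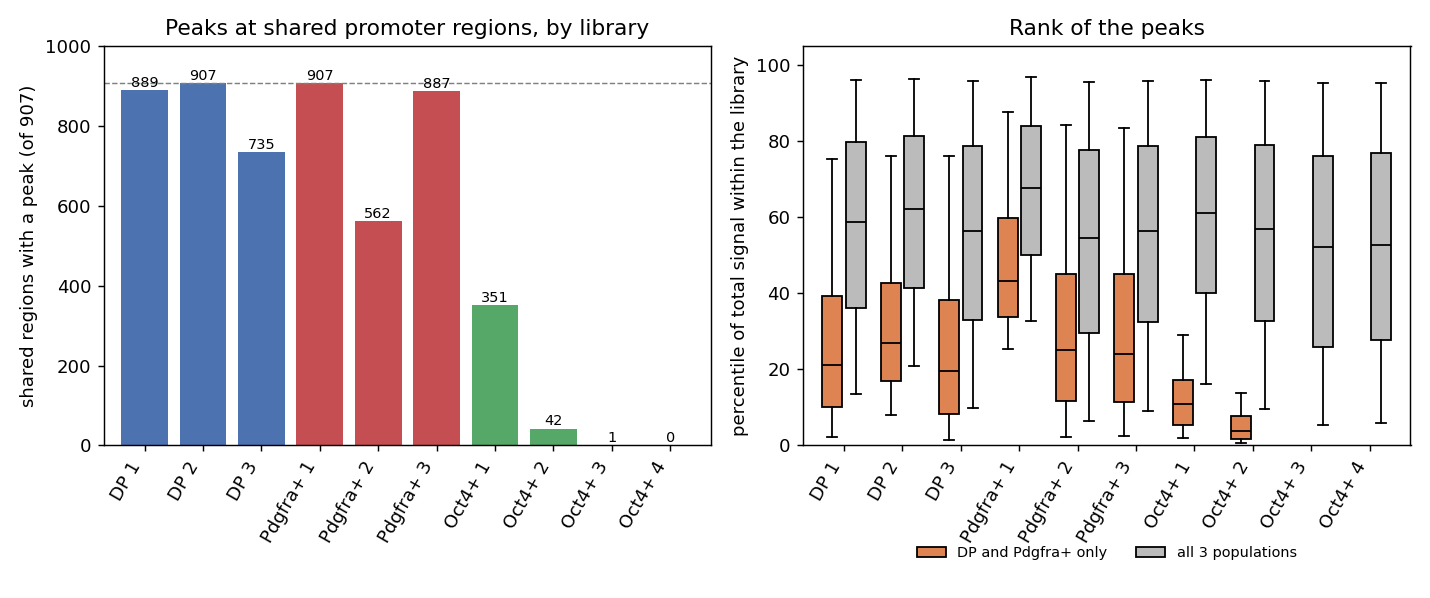
Left, number of the 907 shared regions with a peak in each library (bars), with the dashed line at all regions. Right, percentile of the peaks by total signal within each library for shared regions (orange) and regions of all 3 populations (grey), drawn as medians, quartiles and 5th to 95th percentiles; boxes are drawn only where 5 or more shared regions had a peak, and the median of the shared regions is below that of the others in each library drawn.

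Most shared regions carried weak peaks. The signal of a peak is the sum of coverage over it, which was not scaled between libraries, so each peak was ranked within its own library as a percentile by total signal (100 is the strongest peak). The median percentile of the shared regions was 21.0, 27.0 and 19.6 in DP replicates 1, 2 and 3 (mean 22.5 ± 3.9, SD, n = 3) and 43.1, 25 and 24 in Pdgfra+ replicates 1, 2 and 3 (mean 30.7 ± 10.8, SD, n = 3). Pdgfra+ replicate 1 was the high one, and the other 5 libraries lay close together. In regions of all 3 populations the medians were higher, at 59.1 ± 2.9 in DP and 59.5 ± 7.1 in Pdgfra+ (SD, n = 3 each). Peaks were narrower as well, with a median of 3512 ± 295 bp at shared regions against 4088 ± 414 bp at regions of all 3 populations in DP (SD, n = 3). These ranks bear on the rule, so they are given without a test. The 351 peaks of Oct4+ replicate 1 in shared regions were weak, with a median percentile of 10.8 and a highest value of 50.

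A small part of the shared regions ranked high in all 6 libraries, with no gap to the rest. The lowest percentile over the 6 DP and Pdgfra+ libraries reached 50 in 82 shared regions, 75 in 25 and 90 in 11, whereas in 727 regions no DP library placed the peak at percentile 50 or above. Among the 15 regions of highest rank were those with the promoters of Pdgfra, Myl3 and Pth1r (1 region), Lama1, Foxa2, Lamb1, Hs3st1, Flt1, Gata4, Sept9, Adora1, Zfp703, Fhdc1, Gpc6 and Bmp2. The region over Myl3 and Pth1r (chr9:110732248-110747255) was at percentile 99.7 in each DP library and 99.9 in each Pdgfra+ library. Pth1r encodes the receptor of parathyroid hormone-related protein, which drives the formation of parietal endoderm, and Myl3 a myosin light chain of muscle. Its peak in Oct4+ replicate 1 was at percentile 2.27.

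Peaks at the shared regions were also counted in an Oct4+ library that the rule had not used. The Oct4+ consensus was rebuilt exactly from replicates 1, 2 and 4, so replicate 3 played no part in choosing the regions. It had a peak at 1 of the 907 shared regions, or 0.11% (Wilson 95% interval 0.0195 to 0.622%), and at 3060 of 6322 regions of all 3 populations, or 48.4% (47.2 to 49.6%). Over all 8494 promoter regions the share was 37.8%. These intervals cover counting error over regions of 1 library and are no test of the populations. The single region was that of Phf10, which encodes a subunit of a chromatin remodelling complex. It was at percentile 12.1 in Oct4+ replicate 3, at 22.2 in Oct4+ replicate 2, and at 4.16, 20.9 and 31.2 in DP replicates 1, 2 and 3.

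Replicate 3 had the fewest peaks of all libraries (3477) and missed weak regions of every class, so shares were also taken among regions of similar rank. Among regions whose lowest percentile in the 6 DP and Pdgfra+ libraries was 75 or more, Oct4+ replicate 3 had a peak at 0 of 25 shared regions (Wilson upper bound 13.3%) and at 1110 of 1256 regions of all 3 populations (88.4%). From percentile 50 to 75 it had a peak at 0 of 57 and at 956 of 1441 (66.3%). From 25 to 50 the numbers were 0 of 117 and 580 of 1491 (38.9%), and below 25 they were 1 of 294 and 266 of 1323 (20.1%). The gap between the classes was present in each range of rank and widest among the strongest regions. It is no independent check, since the peaks of replicate 3 lay almost wholly on those of replicates 1 and 2. Merged peaks found in both numbered 3443 for replicates 2 and 3 and 3397 for replicates 1 and 3. The classes were set by replicates 1, 2 and 4, so a low share in shared regions was largely fixed by the rule. Oct4+ replicate 4, which the rule did use, had 0 peaks at the 907 shared regions.

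**Figure D2:**
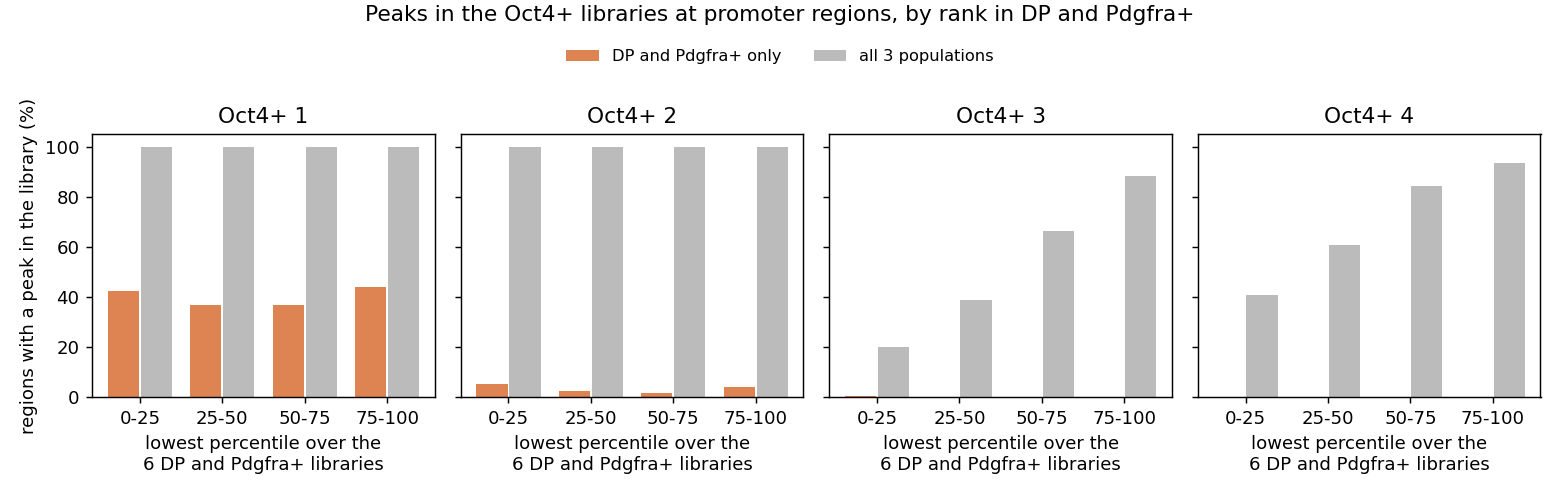
Percent of promoter regions with a peak in each Oct4+ library (bars), for shared regions (orange) and regions of all 3 populations (grey), by the lowest percentile over the 6 DP and Pdgfra+ libraries. The rule used replicates 1, 2 and 4; in replicate 3, which it did not use, the share rises from 20.1% to 88.4% in regions of all 3 populations and is at most 0.34% in shared regions.

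The rule turns on 2 Oct4+ libraries. Regions just inside it had a single Oct4+ peak of fairly high rank: the region of Icam4 and Icam5 (percentile 50 in Oct4+ replicate 1), that of Gcat and H1f0 (35.8) and that of Ebag9 (35.4). Regions just outside were marked in all 3 populations with a peak in 2 of Oct4+ replicates 1, 2 and 4. The strongest in DP and Pdgfra+ were the joint promoter of Col4a1 and Col4a2, which encode type IV collagen (percentiles 32.8 and 13.8 in Oct4+ replicates 1 and 2), Gata6 (31.9 and 21.0) and Adamts9, a secreted protease (65.6 and 34.4). All 3 were at percentile 99.3 or higher in each of the 6 DP and Pdgfra+ libraries, so Gata6 and the type IV collagen genes lay outside the shared regions by a weak second Oct4+ peak. Gata6 also had a peak in Oct4+ replicate 3, at percentile 12.3. When the same number of peaks (3477, the strongest of each library) was taken throughout, 675 regions met the rule, of which 92 had the same boundaries as a shared region. All 25 shared regions at percentile 75 or more held genes that met it again. Every library kept its peaks of that rank, so this return was fixed by the setting and is no test. Of the 37 listed genes described next, 22 met the rule again. The other 15 listed genes, of low rank, did not, and 26 listed genes entered, among them Gata6, Sox17, Col4a1 and Col4a2.

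Gene lists for the lineages and signalling pathways of the blastocyst were counted in the shared regions. For comparison, the shared regions held 4.43% of all 21842 protein-coding gene symbols. Since the rule and these lists were both set with results of these data known, the counts are descriptions. No listed gene had a peak at a shared promoter in Oct4+ replicates 2, 3 or 4.

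Among 30 transcription factors of the PrE, 6 had a shared promoter, 13 lay in regions of all 3 populations and 5 in no region. Of the rest, 2 were marked in DP and Oct4+ only, 2 in Oct4+ only and 2 in DP only. Foxa2 encodes a forkhead factor of endoderm. Its peaks were at percentiles 99.8, 99.8 and 99.8 in DP replicates 1 to 3 and at 99.9, 98.2 and 99.9 in Pdgfra+ replicates 1 to 3. None of the 4 Oct4+ libraries had a peak there. Gata4 was at 99.3, 99.4 and 98.7 in DP and at 99.8, 92.4 and 99.2 in Pdgfra+, with a peak at percentile 15.6 in Oct4+ replicate 1. Sox7, a marker of parietal endoderm, ranked lower, at 70.5, 70.7 and 69.1 in DP and at 80.5, 41.8 and 60.7 in Pdgfra+ replicates 1 to 3. Cited1, a transcriptional co-activator, was at 61.7 to 66.1 in DP and at 67.4 to 82.2 in Pdgfra+. Snai1, a zinc finger repressor of epithelial genes, was at 70.1 to 74.8 in DP and at 62.8 to 83.3 in Pdgfra+, with a peak at 2.21 in Oct4+ replicate 1. The related factors Gata6, Sox17 and Foxa3 were marked in all 3 populations.

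The strongest of these peaks were also wide. The Gata4 region was the widest of the 907 (chr14:63229631-63249047, 19417 bp). Its peaks spanned 11596, 17759 and 10102 bp in DP and 19417, 4325 and 12828 bp in Pdgfra+ replicates 1 to 3, against 3317 bp in Oct4+ replicate 1. Foxa2 (chr2:148036311-148049878) was covered over 13543, 13300 and 12499 bp in DP and over 13002, 8748 and 11206 bp in Pdgfra+. In Pdgfra+ replicate 2 this cover was split into 2 peaks. In the DP and Pdgfra+ libraries the mark around both genes reached further downstream of the TSS than upstream, for example from -2901 to 10641 bp at Foxa2 in DP replicate 1. Among the DP and Pdgfra+ libraries, Pdgfra+ replicate 2 had the narrowest cover at both, and at shared regions as a whole (median 2026 bp).

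**Figure D3:**
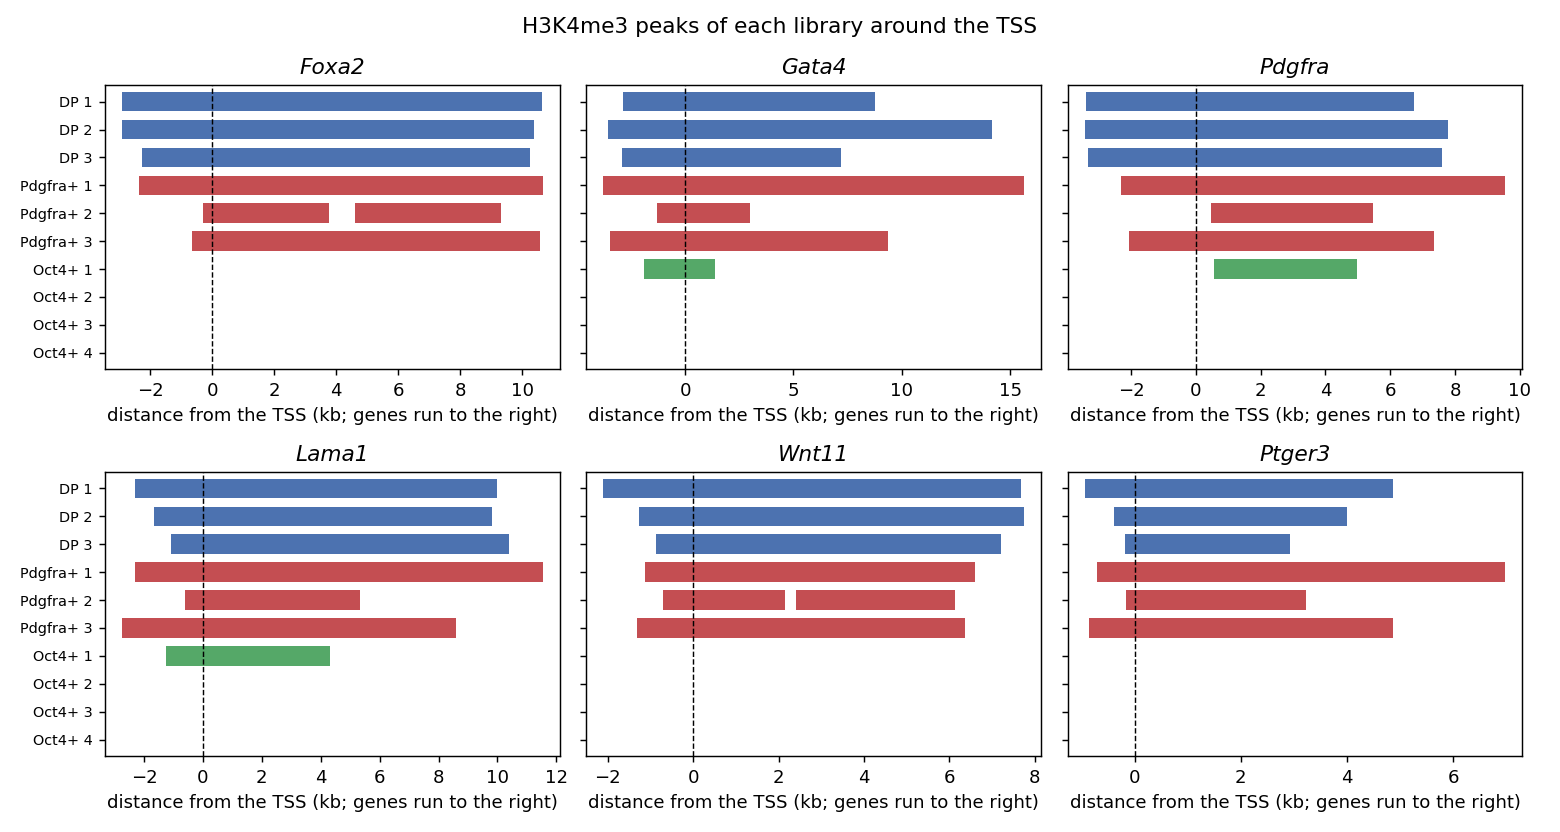
Peaks of each of the 10 libraries (bars) at 6 shared promoters, as distance in kb from the most upstream TSS, with genes running to the right. At Gata4, Pdgfra and Lama1 the Oct4+ replicate 1 peak (3317, 4427 and 5578 bp) is shorter than in any DP library, and no Oct4+ library has a peak at Foxa2, Wnt11 or Ptger3.

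Of 24 basement membrane genes, 4 had shared promoters (Lama1, Lamb1, Lamb2 and P4ha2), 14 lay in regions of all 3 populations, 1 in Oct4+ only and 1 in Pdgfra+ only. Lama1 and Lamb1 encode the alpha and beta chains of laminin-111, the first laminin of the embryo. Lama1 was at percentiles 99.5, 99.4 and 99.4 in DP and at 99.8, 99.5 and 99.4 in Pdgfra+ replicates 1 to 3. Lamb1 was at 99.2, 99.2 and 99.5 in DP and at 99.8, 96.7 and 99.5 in Pdgfra+. Each had a peak in Oct4+ replicate 1, at 14.5 and 20.5. Lamc1, which encodes the gamma chain of the same trimer, was marked in all 3 populations, with a peak in all 4 Oct4+ libraries. Lamb2, the beta chain of other laminins, was weak (12.5 to 42.2 in the 4 libraries with a peak). P4ha2, a subunit of a collagen prolyl hydroxylase, was at 54.6 to 78.3.

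Growth factor genes made up 8 of 37, and 15 others were marked in all 3 populations, 3 in DP and Oct4+ only and 3 in Oct4+ only. Pdgfra was used for the sort, so its mark is a check of the labels and no finding. It was at 99.8 or higher in all 6 DP and Pdgfra+ libraries and at 15.7 in Oct4+ replicate 1, with no peak in the other 3 Oct4+ libraries. Flt1, a receptor of vascular endothelial growth factor, was at 95.7, 97.0 and 94.5 in DP and at 98.3, 98.4 and 98.9 in Pdgfra+ replicates 1 to 3, with no Oct4+ peak. The signal test described below gave an adjusted p of 0.112 (limma). Fgf10 was at 69.5 to 82.7 in DP and at 34.5 to 81.6 in Pdgfra+. Igf2, an imprinted growth factor gene, was at 54.8 to 67.5 in DP and at 49.1 to 77.9 in Pdgfra+. Kitl, Fgfr3, Erbb2 and Fgfr4 were weaker, and Fgfr4 lacked a peak in DP replicate 3 and Pdgfra+ replicate 2.

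Among 46 genes of the BMP, NODAL and WNT pathways, 6 had shared promoters and 18 were marked in all 3 populations. A further 6 were marked in DP and Oct4+ only, 3 in Oct4+ only and 1 in DP only. Bmp2, a ligand secreted by visceral endoderm, was at 87.0, 89.3 and 85.5 in DP and at 90.6, 91.6 and 86.0 in Pdgfra+ replicates 1 to 3. Fst, which encodes the activin antagonist follistatin, was at 88.8, 92.0 and 90.1 in DP and at 95, 82.4 and 95.9 in Pdgfra+. Its peak in Oct4+ replicate 1 was at 20.1. Wnt11 was at 90.6, 91.9 and 90.7 in DP and at 85.6, 40.1 and 78.0 in Pdgfra+. In Pdgfra+ replicate 2 its cover was split into 2 peaks of 2847 and 3717 bp. The value of 40.1 is the rank of a single one of them, so it understates the signal of the whole region. Dkk1, a WNT antagonist, Tgfbr3, a co-receptor, and Bmp6 ranked lower, with no value above 63.9. Of 25 hedgehog, JAK and retinoid genes, Ihh and Cyp26a1 were shared, 13 were marked in all 3 populations, 1 in Pdgfra+ only and 9 in no region. Ihh, a hedgehog ligand of visceral endoderm, was at 80.1, 81.7 and 81.9 in DP and at 70.6, 49.4 and 67.6 in Pdgfra+ replicates 1 to 3. Cyp26a1, which degrades retinoic acid, was at 73.1 to 79.4 in DP and at 70.7 to 93 in Pdgfra+.

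Uptake and secretion genes contributed 3 of 28. Of the rest, 16 lay in no region, 6 were marked in all 3 populations, 2 in DP only (Cubn and Amn) and 1 in DP and Oct4+ only (Apoe). Dab2, an endocytic adaptor that binds megalin in endoderm, was at 90.1, 87.7 and 83.0 in DP and at 93.5, 52.3 and 82.9 in Pdgfra+ replicates 1 to 3. Slc39a8, a metal ion transporter, was at 53.9 to 69.9 in DP and at 49.7 to 82.4 in Pdgfra+. Serpine2, a secreted protease inhibitor, was at 31.4 or below in the 4 libraries with a peak. In the adhesion and cytoskeleton list, 4 of 32 were shared, 19 were marked in all 3 populations, 1 in Pdgfra+ only and 8 in no region. The shared ones were the keratin genes Krt8, Krt18 and Krt19, whose products form the simple epithelial filaments of extra-embryonic layers, and Amot, a regulator of Hippo signalling. Krt8 was at 74.9, 72.1 and 70.2 in DP and at 89.5, 69.4 and 82.9 in Pdgfra+. Krt19 was present in 4 of the 6 libraries and at most at 37.0.

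Lists for other lineages were counted in the same way. None of 25 Epi genes had a shared promoter, and 8 were in regions of DP and Oct4+ only, 7 in Oct4+ only and 6 in all 3 populations. Over all 21842 gene symbols, regions of these classes held 371, 572 and 7678 genes. The class is that of the whole merged region, and Pou5f1, which encodes OCT4, is counted in all 3 populations. Its promoter itself had a peak in 3 DP, 0 Pdgfra+ and 4 Oct4+ libraries. Peaks lay at 13 to 15 Epi genes in DP, 5 to 9 in Pdgfra+ and 19 to 21 in Oct4+ libraries. Of 18 trophectoderm (TE) genes, 4 were shared (Krt8, Krt18, Cdx2 and Gata3), of which the keratins are in the cytoskeleton list too. A further 4 were marked in all 3 populations and 7 lay in no region. Tfap2c was marked in Oct4+ only, Eomes in DP and Oct4+ only and Id2 in DP only. Cdx2, a homeobox factor of TE, was at 9.83 and 24.7 in DP replicates 1 and 2 and at 50.6 and 24.2 in Pdgfra+ replicates 1 and 3, and had no peak in the other libraries. Gata3 was at 21.4 to 41.6 in DP and at 6.8 to 58.2 in Pdgfra+. Of 20 mesoderm genes, 3 were shared (Msx2, Snai1 and Foxc1), with Msx2, a homeobox target of BMP signalling, at 70.9 to 72.8 in DP and at 55.3 to 93.2 in Pdgfra+. In this list 1 gene was in all 3 populations, 1 in DP and Oct4+ only, 1 in DP only and 14 in no region. Of 15 fibroblast genes, listed since feeder cells can persist in cultures, none was shared, and 0 to 3 had a peak in any library.

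**Figure D4:**
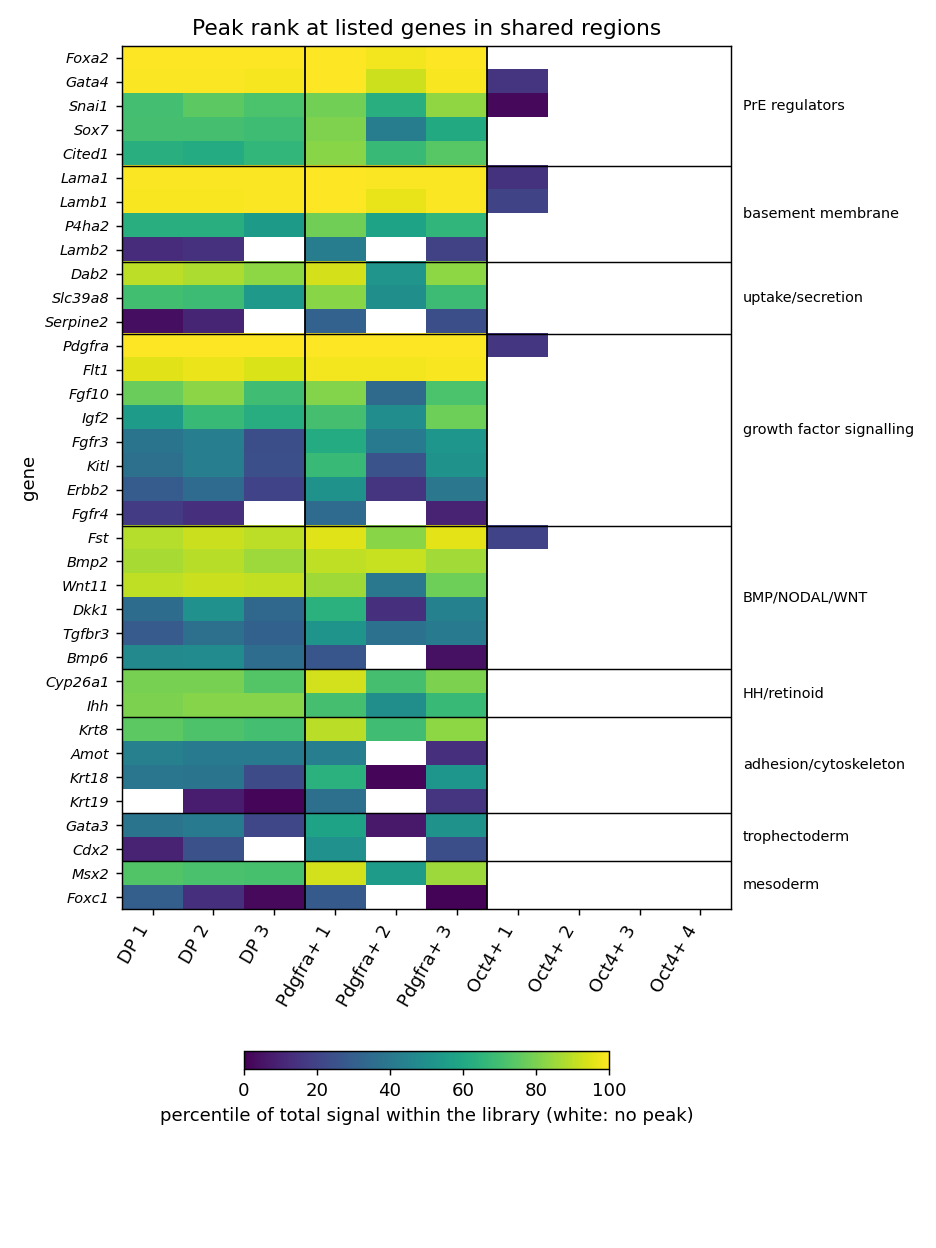
Percentile of the peak by total signal within each library (colour) at 36 listed genes with a shared promoter, with white where the library has no peak. Foxa2, Gata4, Lama1, Lamb1, Pdgfra and Flt1 are near 100 in all 6 DP and Pdgfra+ libraries, and Oct4+ peaks are seen in replicate 1 alone, at 6 genes.

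DP against Pdgfra+ was the contrast that the rule did not use, and it asks where the PDGFRA-positive cells with and without the OCT4 reporter differed at these promoters. Total signal was compared with limma (quantile-normalized log2 values, Benjamini-Hochberg adjustment over all regions) at the 6140 regions with a peak in all 6 libraries, which include 493 shared regions and leave out the 414 that lacked a peak in some library. Coverage was summed over peaks called separately in each library, so total signal moves with the length covered as well as with its height. At an adjusted p under 0.05, 22 shared regions were higher in Pdgfra+ nEnd and 1 was higher in DP nEnd. Over all 6140 regions, 29 were higher in Pdgfra+ (0.472%) and 43 in DP (0.7%). The 22 regions made up 4.46% of the 493. At an unadjusted p under 0.05 the shared regions numbered 150 higher in Pdgfra+ and 11 higher in DP, against 422 and 409 of all 6140 regions. Differences over the shared regions had a median of -0.19 on the log2 scale (DP minus Pdgfra+), against -0.003 over all regions, and 412 of the 493 were below 0 (83.6%, against 50.7% of all regions). The median was nearer to 0 by signal per bp, at -0.11 with 66.3% of shared regions below 0, and with peaks required in only 2 libraries of each population, at -0.12 with 75.4% below 0. Among the 274 tested shared regions with no peak in any Oct4+ library, 15 were higher in Pdgfra+ and 1 in DP.

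Ptger3, which encodes a prostaglandin E2 receptor, had the largest difference of the shared regions (chr3:157565951-157573877). Its peaks were at percentiles 21.4, 40.4 and 26.5 in DP and at 86.8, 80.0 and 76.8 in Pdgfra+ replicates 1 to 3, and no Oct4+ library had a peak. The limma difference was -1.25 ± 0.12 (log2, DP minus Pdgfra+, SE, n = 3 and 3), with adjusted p = 0.00245, so that the total signal in Pdgfra+ was 2.38 times that in DP. The peaks covered 5804, 4372 and 3109 bp in DP and 7699, 3399 and 5732 bp in Pdgfra+ replicates 1 to 3, and the difference in signal per bp was -0.53 (limma adjusted p = 0.845). It was the only shared region called whichever single DP library was left out.

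The next differences among regions higher in Pdgfra+ nEnd were smaller and close to each other. Frmpd1, a scaffold protein, was at 63.7, 59.8 and 50.9 in DP and at 83.7, 86.0 and 85.7 in Pdgfra+ replicates 1 to 3 (-0.71 ± 0.11, SE, limma adjusted p = 0.0159). Irx5, a homeobox factor, was at 69.3, 59.7 and 52.3 in DP and at 86.3, 88.4 and 84.2 in Pdgfra+ (-0.70 ± 0.12, adjusted p = 0.025). Ppp1r16b, a regulatory subunit of a protein phosphatase, was at 58.5, 60.6 and 56.0 in DP and at 89.2, 78.1 and 84.9 in Pdgfra+ (-0.70 ± 0.10, adjusted p = 0.00718). Lrrc38, an auxiliary subunit of potassium channels, was at 85.9, 84.7 and 85.2 in DP and at 98.9, 91.7 and 97.6 in Pdgfra+ (-0.67 ± 0.13, adjusted p = 0.0322). In each of these the lowest Pdgfra+ library ranked above the highest DP library, which picking the largest called differences favours. The share of such separation over all regions was not counted. At Frmpd1, Irx5, Ppp1r16b and Lrrc38, differences in width (log2, DP minus Pdgfra+) were -0.34, -0.56, -0.39 and -0.31 in this order. Those in signal per bp were -0.33, -0.09, -0.27 and -0.32, with none called. The other 17, all but Adora1 named after their values were seen, were Tet3, Kcnq5, Kcnk12, Tcaf1, Slco3a1, Abtb2, Flrt2, Zfp9, Prag1, Mcc, Kif21a, Ap1s3, Ntn4, Cbx8, Sp8, Adora1 and Nr4a3. None of the 22 is on the gene lists. Ratios of total signal over the 22 ran from 1.38 to 2.38, and differences per bp from -0.86 at Tcaf1 to 0.25 at Cbx8. Of the 22 regions, 15 had no peak in any Oct4+ library, and 4 (Lrrc38, Sp8, Adora1 and Nr4a3) were at percentile 75 or more in all 6 libraries.

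Nrg2, which encodes neuregulin 2, a ligand of ERBB receptors, was the 1 shared region higher in DP nEnd. Its peaks were at 74.4, 77.5 and 79.5 in DP and at 54.1, 28.2 and 52.3 in Pdgfra+ replicates 1 to 3 (0.77 ± 0.12, SE, limma adjusted p = 0.0129). No Oct4+ library had a peak there. Its peaks differed by 0.25 in log2 width and by 0.525 in signal per bp (limma adjusted p = 0.807).

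Of the 37 listed genes, 29 had a peak in all 6 libraries and were tested, and 0 passed at an adjusted p under 0.05. The nearest to it was Ihh, at 0.48 ± 0.10 (limma adjusted p = 0.0516). Other differences were 0.38 ± 0.09 at Wnt11 (adjusted p = 0.0664), -0.18 ± 0.09 at Foxa2 (adjusted p = 0.388), 0.12 ± 0.19 at Gata4 (adjusted p = 0.815), -0.06 ± 0.08 at Lama1 (adjusted p = 0.79) and -0.03 ± 0.12 at Pdgfra (adjusted p = 0.931). All are log2 values from limma, DP minus Pdgfra+, with SE. The width of the peaks was tested in the same way and gave 26 regions over all 6140 (0.423%), all higher in DP nEnd and of which 0 were shared regions. At an unadjusted p under 0.05 by limma, 11 shared regions were wider in DP and 37 in Pdgfra+, against 330 and 187 of all 6140 regions.

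**Figure D5:**
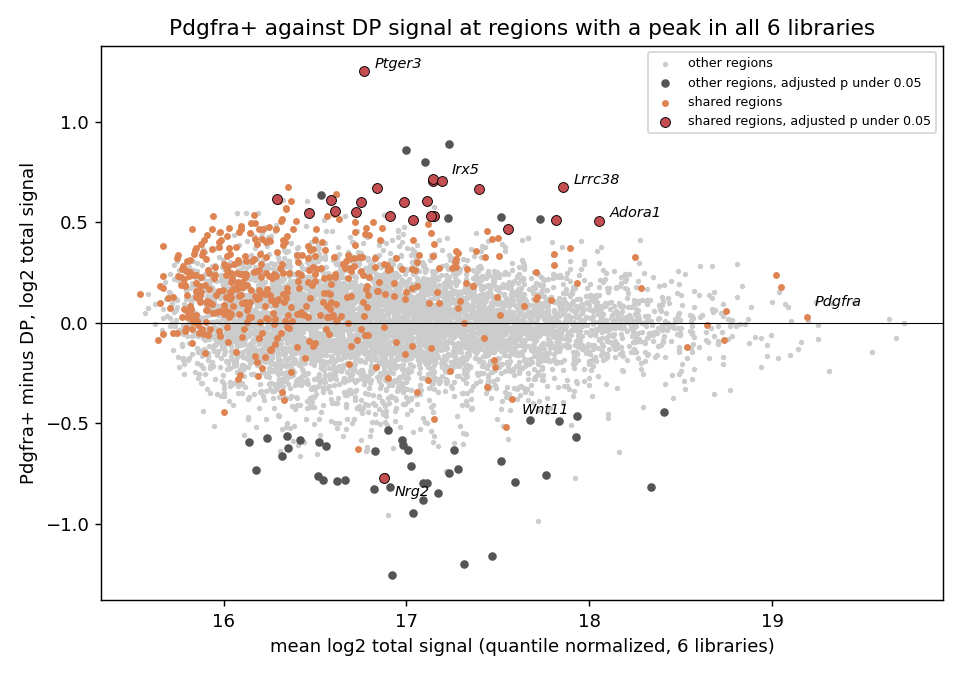
Difference in log2 total signal, Pdgfra+ minus DP, against the mean log2 total signal for the 6140 regions with a peak in all 6 libraries (points), with shared regions in orange and those at adjusted p under 0.05 in red. Of the 23 red points 22 lie above 0, Ptger3 is the highest, and Nrg2 is the one below 0.

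The calls rest on few libraries. Without DP replicate 1, 2 or 3 in turn, 1 shared region was higher in Pdgfra+ and 0 in DP. Without Pdgfra+ replicate 1, 2 or 3 the numbers higher in Pdgfra+ were 6, 69 and 7. By highest coverage in place of total signal 1 was called, and by signal per bp 0. The direction held at all 22 regions in each of these fits, except at Cbx8 by signal per bp.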

How the data were processed

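H3K4me3 CUT&Tag peaks of 10 libraries (DP 3, Pdgfra+ 3, Oct4+ 4) were analysed. Per the labels and the methods of the study, the authors aligned reads to mm10 (GRCm38) with Bowtie2, computed coverage with BEDtools, called SEACR peaks against IgG with the stringent setting and made consensus peaks with DiffBind. The deposited signal values are the total and the highest coverage of each peak, with no scaling to depth. The consensus lists deposited by the authors hold positions and a score of 1 for each peak, which carries no measurement. They were found to equal merged peaks present in at least 2 of DP replicates 1 to 3, Pdgfra+ replicates 1 to 3 and Oct4+ replicates 1, 2 and 4. Weak libraries miss weak peaks, so absence is not proof of no mark. Reads per library are not given, and the depth is unknown.

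Consensus lists were joined (1 bp overlap) and matched to 54374 TSS of 21866 genes (GENCODE M21). Where several peaks of a library fell in a region, signal and width were summed and the highest percentile was taken. DP and Pdgfra+ nEnd were compared with limma (trend, empirical Bayes) on quantile-normalized log2 total signal and on median-centred log2 width. On simulated data for DP against Pdgfra+ (6140 regions) the fit recovered 92 of 100 regions changed by 1 log2 unit. It recovered 99 of 100 changed by 2, with 25 unchanged regions called. These 25 were a larger share of the calls than the threshold of adjusted p aims for. Smaller changes were not simulated. The 22 shared regions called higher in Pdgfra+ had a median difference of -0.599, and Nrg2 differed by 0.771. Among the called shared regions only Ptger3 (-1.25) exceeded 1 log2 unit, so recovery at the others is unknown. No library shared an identical peak with another of its population.

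The regions, gene lists and tests were chosen with earlier results of these data known. Named were listed genes with a shared promoter, the 15 shared regions of highest lowest percentile, the 5 widest, the 5 largest differences called in each direction, shared regions with a peak in Oct4+ replicate 3, and 3 regions each just inside and just outside the rule. Promoter sequences are from RefSeq (GRCm38.p6), where 737 of the 967 genes (76.2%) had one in the region, too few for a comparison of promoter composition between classes. Whole regions were compared as well. Sequences of Gata4, Sox7 and Lama1 are not shown. Values of 1 gene are not reported here, though counts include it. Alternatives were other promoter windows and annotations, stricter or rebuilt consensus lists, other signal measures and scalings, a replicate block and leaving out each library. Software was Python 3.11.15, pandas 2.3.3, numpy 2.4.6, scipy 1.17.1, matplotlib 3.10.9, R 4.3.3 and limma 3.58.1.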

Additional observations from a re-analysis of the deposited data

Results flagged for a closer look

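Oct4+ replicate 1 had a peak at 351 of the 907 shared regions, far above the 42, 1 and 0 of Oct4+ replicates 2, 3 and 4. Its gap to the nearest library was 0.88 of the range of the 4 libraries, above Dixon's 95% critical value. The rule used the peaks of replicates 1, 2 and 4 to choose the regions, so this is a description and no independent test. Only 2 shared regions had a peak in 2 of the 4 Oct4+ libraries. The counts are thus not independent of each other, and the error rate of Dixon's value does not apply to them. It was also the Oct4+ library with the most peaks, 9144 against 8098, 3477 and 4887, and with the highest median coverage maximum, 59 against 52, 22 and 38. The part of depth or of other cells in this was not tested. The shared regions with and without such a peak had close median percentiles in DP nEnd (20.8 and 23.2), and 11 of the 25 regions at percentile 75 or more had one.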

How the results depend on the processing

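The number of shared regions (907, with 967 genes) stayed within 1.5 times under other promoter windows, other annotations and an Oct4+ consensus of all 4 libraries. With equal numbers of peaks it was 675, with 797 genes, but only 92 of these had the boundaries of a shared region. It was 274 regions and 279 genes when a peak was required in all 6 DP and Pdgfra+ libraries and in no Oct4+ library, and 515 regions and 537 genes with no peak in any Oct4+ library, an alternative chosen after seeing the data. Leaving out 1 library gave 546 to 3090 regions and 578 to 3413 genes. Without Pdgfra+ replicate 1 or 3 there were 546 and 562 regions, and without Oct4+ replicate 1 or 2 there were 3090 and 3083, while without Oct4+ replicate 4 there were 909. In these 3 runs without an Oct4+ library the Oct4+ consensus needed both remaining libraries. The cause was not tested. The share with a peak in Oct4+ replicate 3 was 0% where at least 50% of the region had to be covered. Mean median percentiles kept within the spread between libraries (20.3 to 24 in DP and 24.5 to 34.1 in Pdgfra+ without 1 library).

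For total signal, shared regions called higher in Pdgfra+ (22) numbered 1 by highest coverage, 0 by signal per bp, 6 with peaks in at least 2 libraries of each population, 12 with a replicate block and 1 to 69 without 1 library. Those called higher in DP (1) numbered 0 by highest coverage, 0 by signal per bp, 2 with median centring, 2 with peaks in at least 2 libraries of each population, 2 among promoter regions alone and 0 to 4 without 1 library. Over all regions, calls higher in Pdgfra+ (29) numbered 1, 3, 7 and 18 by highest coverage, by signal per bp, with peaks in at least 2 libraries of each population and with the replicate block, and 1 to 103 without 1 library. Calls higher in DP (43) numbered 1 by highest coverage, 0 by signal per bp and 0 to 88 without 1 library, and 32 with the replicate block. Ptger3 was called in 11 of 12 alternatives. Cbx8 reversed to 0.252 by signal per bp, the cause of which was not tested. Nothing in the labels says that replicate numbers pair the samples. Deviations of same-numbered DP and Pdgfra+ libraries correlated at 0.235, -0.0721 and 0.192 over 6140 regions, and not every library correlated best with its own number.

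For width, calls over all regions higher in DP (26) numbered 17 with quantile normalization, 23 with a replicate block and 14 to 41 without 1 library. Calls higher in Pdgfra+ (0) numbered 1 with a replicate block and 0 to 3 without 1 library, and shared regions called wider in DP (0) numbered 0 to 1. The leave-one-out and block fits of width were chosen after seeing the data. The unknown depth limits what absence of a peak can show, most of all in Oct4+ replicates 3 and 4, which had a peak at 48.4% and 65.6% of the regions of all 3 populations.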
